A study of Mus musculus with 57 samples.

Results

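The data describe the messenger RNA that was attached to tagged ribosomes in myeloid cells of the mouse kidney 24 h after ischemia-reperfusion injury (IRI). The members were chosen by title: 3 arrays of the myeloid line after IRI against 3 arrays of the same line after sham surgery, 6 of the 57 arrays in the series. All genes with a probe set of 1 gene symbol entered, 19302 of them after a filter on low values. In the myeloid line Cre recombinase is driven from the lyz2 gene and turns on a green fluorescent ribosomal protein (Rosa26-CAGGS-eGFPL10a), and ribosomes are then pulled from kidney extract with antibodies to the tag, a method named translating ribosome affinity purification (TRAP). The IRI mice were 9.5 weeks old and had both renal pedicles clamped for 28 min. The sham mice were 7 weeks old and had the surgery without clamps. A further 3 arrays came from myeloid-line mice of 7 weeks without surgery. Pull-downs from kidneys with no Cre give the background: 4 IRI and 2 sham arrays of mice with the L10a allele alone and 4 IRI and 2 sham arrays of wild-type mice, all aged 8 weeks. Other lines, used for comparison, carry the same tag with six2-CRE (nephron, 8 weeks), foxd1-CRE (interstitial, 6 weeks) or cdh5-CRE (endothelial, 6 weeks), each with 3 IRI and 3 sham arrays at 24 h. All mice were male, and the labels give a mixed C57BL/6 and 129 background, also for the wild-type mice that the titles call C57BL/6. Age goes with IRI in the myeloid line, so the effects of age and IRI cannot be told apart.

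Kidney tissue holds resident macrophages, dendritic cells and patrolling monocytes, and ischemia draws in neutrophils and inflammatory monocytes within a day. Danger signals from dying tubule cells act on lectin, TREM and Toll-like receptors, whose pathways raise chemokines, cytokines and proteases, while dendritic cells display peptides on MHC class II molecules to T cells. The lyz2 gene is active in macrophages, monocytes and neutrophils, so its Cre can tag each of these.

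The values are RMA intensities on a log2 scale, and a difference of 1 is a 2-fold change. Median linear intensities of the 51 TRAP arrays lay between 105.8 and 128.4, so the arrays compare the composition of the RNA and not its amount. Across genes, Pearson's r was 0.992 to 0.997 between arrays of the myeloid IRI group, 0.992 to 0.997 within sham and 0.953 to 0.969 between the groups. The labels name the cell population macrophage/monocyte. Against the wild-type pull-down 63.4% of all genes differed after IRI (29.9% higher, 33.6% lower), and 56.8% in sham (29.8% higher, 27% lower). Of 24 resident macrophage genes 23 lay above it after IRI and 22 in sham, such as Adgre1, a surface antigen of mouse macrophages, with 10.95 to 11.46 in myeloid IRI arrays, 12.07 to 12.24 in myeloid sham arrays and a mean of 6.40 ± 0.14 (SD, n = 4) in wild-type IRI arrays. The neutrophil genes described next were also far above that background after IRI, a cell type the label does not name. IRI replicate 2 stood apart from the other IRI arrays: it was the lowest of the 3 for 27 of 29 neutrophil genes and the highest for 18 of 24 resident macrophage genes. Sham replicate 2 was the highest sham array for 24 of 25 proximal tubule genes.

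At an adjusted p under 0.05 (limma, Benjamini-Hochberg over 19302 genes) 3137 genes were higher after IRI (16.3% of those tested) and 3437 were lower (17.8%). With each array centred on its median, which moves the median change of all genes from -0.02 to 0.11 on the log2 scale, the split was 5409 higher and 2384 lower. In all 6574 genes were called (34.1%), and among them 528 rose 2-fold or more (2.74%) and 712 fell 2-fold or more (3.69%). Among the genes that rose, 1744 (55.6% of them, 9.04% of all genes) were also above the wild-type pull-down after IRI, and among those that fell, 1636 (47.6% of them, 8.48% of all genes) had been above it in sham. The groups did not overlap for 50.6% of all genes. The titles number the arrays as biological replicates and the labels name no single mice. The p-values and standard errors rest on a spread pooled over the 17 groups of the fit, not on the 6 myeloid arrays alone. A gene that varied more in the myeloid arrays can therefore have too small an error. Cx3cr1, with an SD of 0.86 in myeloid IRI arrays and 0.11 in myeloid sham arrays, has a standard error of 0.22.

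Neutrophil genes rose together, 24 of 29 tested and 0 lower, against 16.3% of all genes, with a median log2 change of 2.13 against -0.02 over all genes. Of the 24, 22 also lay above the wild-type pull-down after IRI, against 55.6% of all genes that rose. Mmp8, the neutrophil collagenase, had log2 intensities of 11.07, 10.69 and 11.23 in IRI arrays, against 6.04, 6.18 and 5.68 in sham arrays. Every IRI array was far above every sham array, and the change was 5.03 ± 0.22 (SE), a 32.7-fold rise (limma adjusted p = 1.7e-20). Cxcr2, the receptor that guides neutrophils along CXC chemokines, had 11.14, 11.01 and 11.16 after IRI, against 6.52, 6.48 and 5.77 in sham. Its rise was 4.85 ± 0.29 (limma adjusted p = 1.4e-16), again without overlap, which was so for 50.6% of all genes. Il1r2, a decoy receptor that binds interleukin 1 without signalling, reached 12.26, 11.84 and 12.14 in IRI arrays, against 7.94, 7.66 and 7.46 in sham arrays. Ly6g, the surface antigen by which mouse neutrophils are recognised, had 10.19, 9.03 and 10.09 after IRI, against 5.65, 5.71 and 5.60 in sham. IRI replicate 2 was the low array of the IRI group for Ly6g and still lay far above sham (4.12 ± 0.16). The same array was low for the granule gene Ngp, with 9.98, 7.69 and 9.77 in IRI arrays, against 5.55, 5.28 and 5.32 in sham arrays.

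S100a8 and S100a9, the subunits of calprotectin, were already abundant in sham. S100a8 had 12.65, 12.28 and 12.74 in IRI arrays, against 10.37, 10.26 and 9.69 in sham arrays, and 7.20, 7.75 and 7.70 in arrays without surgery. It rose by 2.45 ± 0.33 over sham and by 5.00 over no surgery, and S100a9 rose by 2.43 ± 0.38 and 4.92. The lineage genes made early in neutrophil formation did not pass the test: Mpo (-0.06), Elane (0.06), Prtn3 (0.19) and Ctsg (-0.07). Nor did Camp (-0.05), although Ltf rose by 0.41. The mean log2 level over the 29 genes was 8.83 to 9.38 in myeloid IRI arrays, 6.87 to 7.03 in myeloid sham arrays and 6.57 to 6.64 without surgery. In the backgrounds after IRI it was 6.53 to 6.68 with the L10a allele and 6.71 to 7.34 in wild type. The change of 23 of the 29 genes was larger than that of the L10a background by the test of the difference (limma adjusted p under 0.05), against 13.8% of all genes. In these pooled extracts more cells of a type and more RNA per cell cannot be told apart.

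**Figure D1:**
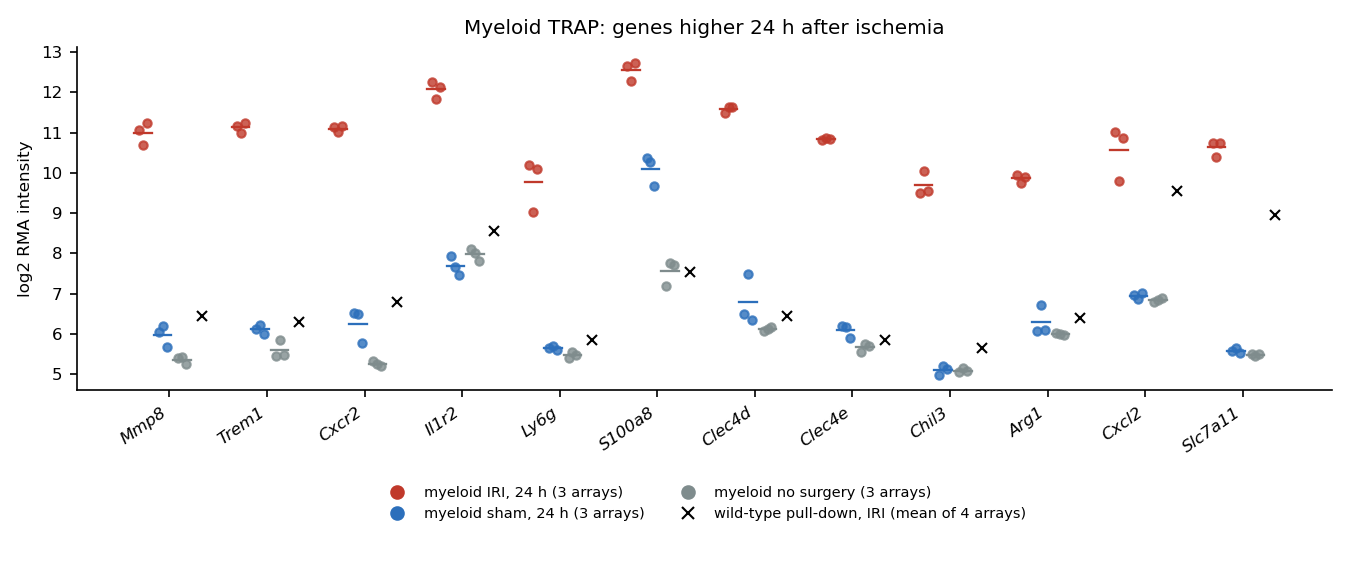
Log2 RMA intensity of 12 genes in the single myeloid arrays after IRI (left in each column), sham surgery and no surgery, with group means as bars and the mean of the 4 wild-type IRI pull-downs as a cross. For all 12 genes the IRI arrays lie above the sham arrays, and the cross comes closest to the IRI arrays for Cxcl2 and Slc7a11.

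The lectin and TREM receptors split. Of 22 tested, 10 rose (16.3% of all genes did) and 6 fell (17.8%). Of those that rose, the 5 named here lay 0.60 to 0.89 above the wild-type pull-down in sham. Trem1, which amplifies inflammatory signals on neutrophils and monocytes, had 11.15, 11.00 and 11.25 in IRI arrays, against 6.12, 6.23 and 5.99 in sham arrays (5.02 ± 0.14, limma adjusted p = 3.0e-27). Clec4e, or Mincle, which senses a nuclear protein of dead cells, was tight within each group, with 10.83, 10.86 and 10.83 in IRI arrays, against 6.20, 6.17 and 5.89 in sham arrays. Its rise of 4.75 ± 0.10 was a 27.0-fold one (limma adjusted p = 2.1e-31). Clec4d, its partner receptor, had 11.48, 11.63 and 11.63 after IRI, against 6.50, 7.50 and 6.35 in sham, where replicate 2 was the high array. Cd300lf, an inhibitory receptor for lipids (3.64 ± 0.14), and Trem3 (3.63) followed. Clec12a, an inhibitory lectin that binds uric acid crystals, fell by 1.90, with 8.89, 8.56 and 7.91 in IRI arrays, against 10.43, 10.08 and 10.57 in sham arrays. Clec7a, the beta-glucan receptor dectin-1, fell by 0.97. Tyrobp, the shared adaptor of several of these receptors, did not pass (-0.06). The count of receptors that fell dropped to 3 with arrays centred on their medians and to 3 without IRI replicate 1, IRI replicate 3, sham replicate 1 or sham replicate 3.

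The promoters of Mmp8 and Clec4e, genes that rose 32.7-fold and 27.0-fold, are shown as the 250 bases before the start in the RefSeq annotation of GRCm38.p6. Capitals mark matches to TTGCNNAA, a form of the site of C/EBP factors, and in Mmp8 also to GAGGAAG, a form of the site of PU.1, each searched on both strands. Mmp8 lies at chr9:7558179-7558428 on the plus strand and Clec4e at chr6:123289872-123290121 on the minus strand.
Mmp8: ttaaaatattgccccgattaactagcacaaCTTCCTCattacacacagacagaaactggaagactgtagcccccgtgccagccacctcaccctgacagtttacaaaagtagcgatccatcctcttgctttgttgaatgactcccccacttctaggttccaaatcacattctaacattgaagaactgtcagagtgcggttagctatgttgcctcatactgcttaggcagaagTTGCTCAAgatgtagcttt
Clec4e: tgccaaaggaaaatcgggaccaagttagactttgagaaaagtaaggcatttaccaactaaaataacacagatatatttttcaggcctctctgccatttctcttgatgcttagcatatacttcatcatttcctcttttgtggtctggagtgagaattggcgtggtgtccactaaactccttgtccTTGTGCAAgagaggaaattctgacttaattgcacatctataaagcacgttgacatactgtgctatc
The C/EBP match began 19 bases before the start of Mmp8 and 66 before that of Clec4e, and the matches do not overlap each other. Of the 29 neutrophil genes 27 had a window, and 8 of the 27 (29.6%) held TTGCNNAA, against 9.56% of 32851 windows of all genes. GAGGAAG was found in 10 of the 27 (37.0%), against 10.6% of all windows. Mpo, Elane, Prtn3 and Ctsg, which did not pass the test, were among those 10. The list was chosen as genes of neutrophils, so these shares describe the list and not the change after IRI. They count the first window of each listed gene against all windows in the annotation. Binding of these factors was not tested.

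Chemokine ligands rose in 8 and fell in 7 of 26, against 16.3% and 17.8% of all genes, and members of both the CXC and the CC family went each way. Cxcl2, a CXC chemokine that calls neutrophils, had 11.01, 9.79 and 10.88 in IRI arrays, against 6.95, 6.87 and 7.02 in sham arrays. IRI replicate 2 was low, yet above all sham arrays (3.61 ± 0.57, limma adjusted p = 2.9e-06). The gene rose by nearly as much in wild-type pull-downs (3.60). Cxcl3 rose by 3.62 ± 0.28, Ppbp, the CXC chemokine first known from platelets, by 2.97 ± 0.23, and Ccl2, the chief monocyte attractant, by 1.76. Ccl12, another ligand of the monocyte receptor Ccr2 in the mouse, went the other way, with 6.06, 6.24 and 6.20 in IRI arrays, against 9.54, 9.65 and 9.97 in sham arrays. That fall of 3.55 ± 0.14 on the log2 scale left it 0.39 above the wild-type pull-down. Cxcl9 and Cxcl10, interferon-induced ligands of the T cell receptor Cxcr3, fell by 2.32 ± 0.26 and 1.49 ± 0.40. Ccl8 (-1.20), Cxcl12 (-1.12), Ccl4 (-0.88) and Ccl24 (-0.25) also fell, while Ccl22 (1.27), Cxcl14 (1.61), Ccl9 (0.88) and Pf4 (0.68) rose. Without IRI replicate 2 the count of ligands that rose was 13.

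Chemokine receptors rose in 7 and fell in 5 of 17, against 16.3% and 17.8% of all genes. The number that fell was 3 without IRI replicate 1 and 2 in a fit of the compared groups alone. Beside Cxcr2, Ccr1, a receptor for inflammatory CC chemokines, had 9.58, 10.32 and 9.47 in IRI arrays, against 7.05, 7.02 and 7.00 in sham arrays (2.76 ± 0.19). Ccr7, which leads dendritic cells to lymph nodes, rose by 1.66 ± 0.19 and Cxcr4, the marrow-retention receptor, by 1.55. Cx3cr1, the fractalkine receptor of resident macrophages and patrolling monocytes, had 8.67, 10.11 and 8.57 in IRI arrays, against 12.05, 11.94 and 12.16 in sham arrays. IRI replicate 2 was the high array of its group, the reverse of its place for neutrophil genes, and the fall was 2.93 ± 0.22 on the log2 scale (limma adjusted p = 1.2e-13). Cxcr3 fell by 1.63. Ccr2, the receptor of inflammatory monocytes, had 9.54, 10.77 and 9.66 after IRI, against 10.98, 10.36 and 10.86 in sham, so that its arrays overlapped. Its fall of 0.74 ± 0.20 did not pass without IRI replicate 1 (-0.51, limma adjusted p = 0.070) or in a fit of the 6 arrays alone (limma adjusted p = 0.13).

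Cytokines and growth factors rose in 14 and fell in 5 of 32 (16.3% and 17.8% of all genes). Il1rn, the interleukin 1 receptor antagonist, had 9.44, 8.72 and 9.80 in IRI arrays, against 7.06, 7.17 and 7.09 in sham arrays (2.22 ± 0.21, limma adjusted p = 4.7e-11). Oncostatin M (Osm), a cytokine of neutrophils and macrophages, rose by 1.85 ± 0.19. Il10, an anti-inflammatory cytokine, had 7.43, 6.13 and 7.51 in IRI arrays, against 5.62, 5.71 and 6.02 in sham arrays, and rose by 1.25 ± 0.18 with IRI replicate 2 close to sham. Il1b did not pass: it had 11.70, 11.29 and 11.74 after IRI, against 11.21, 11.24 and 11.29 in sham, a difference of 0.33 ± 0.33 (limma adjusted p = 0.50). Nor did Tnf (-0.25 ± 0.13, limma adjusted p = 0.15). Tnf, the chief early inflammatory cytokine, had 7.75, 7.97 and 7.97 in IRI arrays, against 8.23, 7.99 and 8.23 in sham arrays. Hbegf (1.81) and Il6 (1.65 ± 0.45) rose, but Il6 was lower than in wild-type pull-downs after IRI by 1.40 on the log2 scale. Il15, which keeps natural killer cells alive (-1.60), Igf1 (-1.44), Pdgfb (-1.07), Il18 (-0.77) and Il12b (-0.45) fell.

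Cytokine receptors rose in 14 and fell in 2 of 25 (16.3% and 17.8% of all genes), and in 1 without IRI replicate 3. In L10a and wild-type pull-downs 17 and 17 of the 25 rose, against 23.2% and 22.9% of all genes. The myeloid change was more positive than that of L10a for 9 of the 25 and more negative for 10, against 13.8% and 11.6% of all genes. Il17ra, the interleukin 17 receptor, had 10.21, 9.93 and 10.34 in IRI arrays, against 7.83, 7.93 and 7.61 in sham arrays (2.37 ± 0.18). Next came Il1rap, the interleukin 1 receptor accessory chain (2.22), Csf2rb2 (1.72) and Csf2rb (1.56), beta chains of receptors for granulocyte-macrophage colony-stimulating factor and its relatives, and Csf3r, the receptor of the granulocyte factor (1.61). Csf1r, the receptor for the factor that macrophages live on, had 12.47, 12.62 and 12.50 after IRI, against 12.72, 12.65 and 12.58 in sham, and did not pass (-0.12 ± 0.17). Targets and brakes of NF-kB rose in 13 of 22 (16.3% of all genes) and fell in 0 (17.8%), or in 1 by quantile normalization or without sham replicate 2. They included Socs3, an inhibitor of cytokine signalling (2.43 ± 0.26), Ptgs2, the inducible cyclooxygenase (1.84 ± 0.37), Ier3 (1.54) and Tnfaip3, the A20 protein that ends NF-kB signalling (1.48). Among immediate early genes 13 of 22 rose, against 16.3% of all genes. Myc was called lower (-0.48), but no gene of the list was when any 1 of the 6 myeloid arrays was left out, with arrays centred on their medians, or with 45 or 57 arrays in the fit. Fos had 10.70, 10.20 and 10.69 in IRI arrays, against 7.62, 7.35 and 7.30 in sham arrays (3.11 ± 0.29), and Fosl1, a further AP-1 subunit, rose by 2.65 ± 0.16. The same NF-kB and immediate early lists rose in 19 of 22 and 21 of 22 genes in wild-type pull-downs, against 22.9% of all genes there (20.3% fell, 43.2% changed in all), and in 16 and 15 of 22 with the L10a allele, against 23.2% (22.5% fell, 45.7% changed in all). Their part in the myeloid values was not tested gene by gene beyond the difference from the L10a response. That difference was positive for 4 NF-kB and 6 immediate early genes of 22 each, against 13.8% of all genes. It was negative for 7 of each list, against 11.6% of all genes.

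The monocyte list had 12 of 22 genes higher and 6 lower, against 16.3% and 17.8% of all genes, and its median change was 1.35. Hp, or haptoglobin, had 10.69, 11.09 and 10.73 in IRI arrays, against 6.34, 7.84 and 6.46 in sham arrays, where replicate 2 was high (3.96 ± 0.90, limma adjusted p = 0.00054). Its error also takes in the background IRI arrays, which spread widely (SD 2.09 with the L10a allele, 2.65 in wild type). After IRI Hp lay 1.68 above the wild-type pull-down, which did not pass (limma adjusted p = 0.080). It rose by 2.62 in L10a pull-downs, and the difference from that rise did not pass (limma adjusted p = 0.47). Versican (Vcan), a matrix proteoglycan of classical monocytes, rose by 2.99 ± 0.34, Ifitm6 by 2.82 ± 0.25 and Itgam, the CD11b integrin chain, by 1.43 ± 0.32. Among the 6 that fell were Ace (-1.16), Spn (-1.16) and Treml4 (-0.42), genes of the non-classical subset, and Ccr2 (-0.74), the receptor of inflammatory monocytes. Nr4a1, the factor the non-classical subset needs, rose by 1.78. Lyz2 itself, whose locus drives the Cre, had 12.13, 12.43 and 12.15 after IRI, against 12.84, 12.76 and 12.96 in sham. Its arrays did not overlap, yet the difference of -0.61 ± 0.30 missed the threshold (limma adjusted p = 0.11) and passed in a fit of the 6 arrays alone (limma adjusted p = 0.0031). Ly6c2 was not analysed here.

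Chil3 and Arg1, markers of alternative activation in mouse macrophages, both rose. Chil3, a chitinase-like protein also named Ym1, had 9.51, 10.04 and 9.56 in IRI arrays, against 4.98, 5.20 and 5.12 in sham arrays. Arginase 1 (Arg1), which takes arginine away from nitric oxide synthesis, had 9.96, 9.74 and 9.89 in IRI arrays, against 6.08, 6.71 and 6.09 in sham arrays. In sham they lay 0.06 and 0.30 above the wild-type pull-down, which did not pass. Chil3 and Arg1 rose by 4.60 ± 0.10 and 3.57 ± 0.17 (limma adjusted p = 3.8e-30 and 1.8e-19). Neither overlapped sham, as was so for 50.6% of all genes. Of the 22 genes on this list 9 rose and 4 fell, against 16.3% and 17.8% of all genes. The mannose receptor Mrc1 (0.40 ± 0.26), the resistin-like Retnla (-0.82) and Ccl17 (0.39) did not pass, and Mgl2, a lectin of the same macrophages, fell by 0.81. Mrc1 did pass in a fit of the 6 arrays alone (limma adjusted p = 0.0045). The number that fell was 1 or 2 when any 1 of the 6 myeloid arrays was left out, 1 with arrays centred on their medians and 2 by quantile normalization or with 45 or 57 arrays.

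Resident macrophage genes fell more often than they rose, with 11 of 24 lower (17.8% of all genes) and 2 higher (16.3%), and a median of -0.21. Adgre1 had 11.02, 11.46 and 10.95 in IRI arrays, against 12.24, 12.07 and 12.24 in sham arrays (-1.04 ± 0.24, limma adjusted p = 0.00066). Aif1, the Iba1 protein of macrophages, had 9.86, 10.09 and 9.53 after IRI, against 11.47, 11.39 and 11.48 in sham (-1.62 ± 0.25). Hpgd, which breaks down prostaglandins, fell by 1.83 ± 0.18. These falls were partial, and each gene stayed far above the wild-type pull-down, by 1.85 to 4.74 on the log2 scale. The complement genes C1qa (-0.10 ± 0.23), C1qb (-0.02) and C1qc (-0.20) did not pass, and C1qa had 12.85, 12.84 and 12.80 in IRI arrays, against 12.99, 12.88 and 12.92 in sham arrays. Mertk, a receptor for the uptake of dead cells, rose by 1.82 ± 0.15 and the haemoglobin scavenger receptor Cd163 by 1.04. With arrays centred on their medians 7 genes fell, and without IRI replicate 1 it was 6. The mean log2 level over the 24 genes was 10.49 to 10.90 in IRI arrays, 10.98 to 11.22 in sham arrays and 11.09 to 11.19 without surgery.

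Of 24 dendritic cell genes 16 were lower and 4 higher, against 17.8% and 16.3% of all genes, and the median change was -0.83. Xcr1, the chemokine receptor of the cross-presenting subset (cDC1), had 5.79, 5.85 and 5.82 in IRI arrays, against 9.54, 9.42 and 9.25 in sham arrays. The IRI arrays lay 0.10 above the wild-type pull-down, which did not pass, and the fall from sham was 3.58 ± 0.14 on the log2 scale (limma adjusted p = 2.3e-22). Clec9a, by which the same subset recognises dead cells, had 5.77, 5.45 and 5.86 after IRI, against 9.38, 8.70 and 8.91 in sham (-3.30 ± 0.17), and its IRI level was 0.24 above wild type, which did not pass either. Batf3, a factor cDC1 cells depend on, fell by 1.41, Irf8 by 0.76 and the integrin chain Itgae by 1.26. Markers of other dendritic cells fell as well. Cd209a, a DC-SIGN relative, had 8.39, 9.23 and 9.96 in IRI arrays, against 11.93, 11.51 and 11.38 in sham arrays (-2.41 ± 0.27) and Clec4b1 fell by 2.49. Flt3, the growth factor receptor of dendritic cells and their precursors, fell by 0.79 ± 0.13. Ccr7 (1.66), Itgax (0.73), Id2 (0.60) and Fscn1 (0.45) rose.

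**Figure D2:**
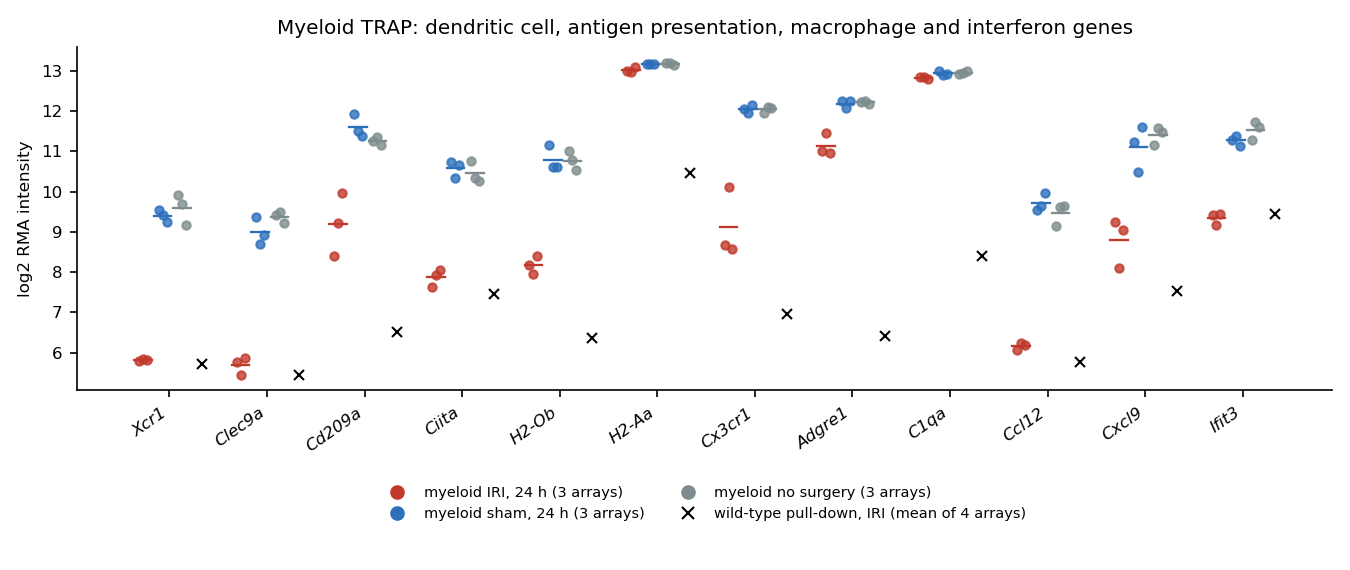
Log2 RMA intensity of 12 genes in the single myeloid arrays after IRI (left in each column), sham surgery and no surgery, with group means as bars and the mean of the 4 wild-type IRI pull-downs as a cross. Xcr1, Clec9a and Ccl12 lie near the cross after IRI, whereas H2-Aa and C1qa remain close to their sham values.

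Of 19 genes of antigen presentation 3 rose, near the 16.3% of all genes, and 6 fell, against 17.8%. Ciita, the transactivator that switches class II genes on, had 7.63, 7.93 and 8.05 in IRI arrays, against 10.74, 10.34 and 10.65 in sham arrays (-2.71 ± 0.21, limma adjusted p = 2.7e-13). H2-Ob and H2-Oa, the chains of the molecule that tempers peptide loading, fell by 2.61 ± 0.21 and 2.40 ± 0.23, and H2-DMa of the loading molecule itself by 0.90. The presenting chains did not pass: H2-Aa had 12.99, 12.97 and 13.08 after IRI, against 13.18, 13.18 and 13.17 in sham, a difference of -0.16 ± 0.35, and neither did H2-Ab1 (-0.29), H2-Eb1 (-0.25) and Cd74 (-0.04). These intensities lie near the top of the scale of the arrays, where a change may not show. The immunoproteasome subunits Psmb8 (-0.98) and Psmb9 (-0.80) fell, and the costimulators Cd80 (1.50 ± 0.17) and Cd40 (0.84) rose.

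Interferon response genes fell in 17 of 23, against 17.8% of all genes, and rose in 0, with a median of -0.77. Ifi205 had 9.00, 8.17 and 9.52 in IRI arrays, against 11.16, 11.15 and 11.08 in sham arrays (-2.23 ± 0.26). Usp18, an enzyme that limits interferon signalling, had 8.26, 8.95 and 8.49 after IRI, against 10.65, 10.77 and 10.47 in sham (-2.07 ± 0.19). Ifit3, an antiviral protein, had 9.42, 9.17 and 9.43 in IRI arrays, against 11.27, 11.39 and 11.14 in sham arrays (-1.93 ± 0.31), and Oas1a, a sensor of double-stranded RNA, fell by 1.54. For these 4 genes no IRI array overlapped a sham array, which was so for 50.6% of all genes. Irf7 (-0.68), Stat2 (-0.61) and Ifit2 (-1.09) fell, while Oas2 (0.42), Mx1 (0.18), Rsad2 (0.15) and Oasl1 (0.20) did not pass. In the L10a background 5 of the 23 rose and 3 fell after IRI, and in wild type 2 rose and 5 fell, against 23.2% and 22.5% of all genes for L10a and 22.9% and 20.3% for wild type. The fall in the myeloid line was larger than the L10a change for 11 genes by the test of the difference, against 11.6% of all genes. Against no surgery 21 fell and 0 rose. By quantile normalization, with arrays centred on their medians or without IRI replicate 2, 2 genes of the list rose.

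Promoters of this list are shown because so many of its genes fell together. Capitals mark a pair of GAAA words with any 2 bases between them, on either strand, the core of the interferon-stimulated response element, in the 250 bases before the RefSeq start on GRCm38.p6. Oas1a lies at chr5:120907526-120907775 on the minus strand and Ifit3 at chr19:34583279-34583528 on the plus strand.
Oas1a: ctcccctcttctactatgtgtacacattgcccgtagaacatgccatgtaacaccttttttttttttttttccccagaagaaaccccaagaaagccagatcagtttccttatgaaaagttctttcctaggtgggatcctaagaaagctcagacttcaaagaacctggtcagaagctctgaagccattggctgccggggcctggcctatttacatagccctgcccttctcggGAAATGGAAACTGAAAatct
Ifit3: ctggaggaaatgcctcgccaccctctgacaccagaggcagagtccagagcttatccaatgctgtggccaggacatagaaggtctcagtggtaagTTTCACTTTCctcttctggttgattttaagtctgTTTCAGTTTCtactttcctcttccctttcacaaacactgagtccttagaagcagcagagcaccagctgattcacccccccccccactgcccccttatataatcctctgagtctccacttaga
The matches in Oas1a begin 20 and 14 bases before the start and overlap, and those in Ifit3 begin 156 and 122 bases before it. Of the 23 genes 19 had a window, and 10 of these (52.6%) held the motif, against 2.98% of 32851 windows of all genes and 0 of the 27 windows of neutrophil genes. Rsad2 and Oas3, which did not pass, were among the 10. The list was chosen as genes of the interferon response, so the share describes the list and not its fall after IRI. A match says that these letters are in the window and nothing of factor binding.

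Pattern recognition genes rose in 7 and fell in 7 of 25 (16.3% and 17.8% of all genes). The RNA sensors Tlr8 and Tlr13 rose by 1.29 ± 0.24 and 0.73 ± 0.20, and Tlr8 had 12.19, 12.37 and 12.31 in IRI arrays, against 11.07, 10.92 and 11.01 in sham arrays. The DNA sensor Tlr9 fell by 0.91 ± 0.15 and Tlr1 by 0.93 ± 0.21. Tlr4, the endotoxin receptor (-0.03), and Tlr7 (0.03) did not pass. Nlrp3, the inflammasome sensor (0.54), and Casp4 (0.89) rose, and Casp1 (-0.46) and Gsdmd (-0.37) fell. Fc and complement receptor genes mostly missed the threshold, with 3 of 19 higher and 2 lower (16.3% and 17.8% of all genes). Itgam, Itgax and Cr1l (0.44) rose, and Fcgr1 (-0.39) and Cfb (-0.66) fell. In a fit of the compared groups alone 7 were higher and 0 lower, and 1 was lower without IRI replicate 1, IRI replicate 3, sham replicate 2 or sham replicate 3, with 45 arrays and with arrays centred on their medians. Cfb did not pass without sham replicate 2 (-0.38, limma adjusted p = 0.19) or IRI replicate 2 (limma adjusted p = 0.051), or in a fit of the 6 arrays alone (limma adjusted p = 0.062).

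Proteases and matrix genes rose in 18 and fell in 3 of 25 (16.3% and 17.8% of all genes). Mmp19 had 10.76, 10.75 and 10.68 in IRI arrays, against 6.85, 7.13 and 6.65 in sham arrays (3.85 ± 0.18). Adam8, a shedding protease of leukocytes, had 11.67, 11.76 and 11.79 after IRI, against 8.16, 8.02 and 8.43 in sham (3.54 ± 0.18), and Mmp9, the gelatinase of neutrophils, rose by 3.43 ± 0.20. Plaur, the urokinase receptor (3.29), and Timp1, a metalloprotease inhibitor (3.21), rose too, but their levels after IRI lay 0.37 and 0.14 above the wild-type pull-down, which did not pass. Tnc rose by 3.07 and was 2.46 below that pull-down on the log2 scale. Mmp13, a collagenase well above background in these macrophages, fell by 2.20 ± 0.27, with 9.28, 9.90 and 9.29 in IRI arrays, against 11.78, 11.62 and 11.67 in sham arrays. Of the 18 that rose, 8 were above the wild-type pull-down after IRI, against 55.6% of all genes that rose. In L10a and wild-type pull-downs 14 and 15 of the 25 rose (23.2% and 22.9% of all genes), and 0 and 5 fell (22.5% and 20.3%).

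Heme, iron and antioxidant genes rose in 14 and fell in 0 of 23 (16.3% and 17.8% of all genes). In L10a and wild-type pull-downs 11 and 13 of the 23 rose (23.2% and 22.9% of all genes), and 4 and 3 fell (22.5% and 20.3%). Slc7a11, the cystine importer that feeds glutathione, had 10.75, 10.40 and 10.74 in IRI arrays, against 5.57, 5.64 and 5.53 in sham arrays (5.05 ± 0.31, limma adjusted p = 2.9e-16). It rose by 3.54 in wild-type and by 0.60 in L10a pull-downs, and its myeloid IRI level was 1.68 above that of wild type. Hmox1, which degrades heme, had 12.95, 13.09 and 12.91 after IRI, against 11.28, 11.35 and 11.41 in sham (1.64 ± 0.20). The antioxidant enzyme gene Srxn1 (1.99 ± 0.13) and the metallothioneins Mt2 (1.79) and Mt1 (1.14) rose as well. After IRI Srxn1 lay below the wild-type pull-down, in which it rose by 3.34. The iron exporter Slc40a1 (0.01) and the transferrin receptor Tfrc (-0.50) did not pass.

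Glycolysis and hypoxia genes rose in 10 and fell in 3 of 26 (16.3% and 17.8% of all genes). The lactate exporter Slc16a3 had 9.77, 9.66 and 10.04 in IRI arrays, against 8.23, 7.91 and 8.15 in sham arrays (1.73 ± 0.11), and Pfkfb3, which speeds glycolysis, rose by 1.55 ± 0.16. Egln3, an oxygen sensor that is itself induced by hypoxia (1.27 ± 0.24), and the glucose transporter Slc2a1 (1.13) rose. Most enzymes of the pathway did not pass, such as Ldha (0.02) and Pgk1 (0.15). Slc16a3 and Pfkfb3 changed by -0.11 and -0.53 in L10a pull-downs, and 11 of the 26 genes had a more positive change than that background, against 13.8% of all genes. Oxidative phosphorylation genes fell in 12 of 25 (17.8% of all genes) and rose in 0, mostly by small amounts (median -0.23), apart from Ndufa2, a subunit of complex I (-1.64 ± 0.14). The number that fell was 5 with arrays centred on their medians and 7 without IRI replicate 3 or with 45 or 57 arrays. The unfolded protein and ATF4 list had 6 of 19 higher, led by asparagine synthetase (Asns, 1.91), and 3 lower, led by Sdf2l1 (-1.08), against 16.3% and 17.8% of all genes.

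Genes of phagocytosis and the lysosome rose in 11 and fell in 1 of 29 (16.3% and 17.8% of all genes). In L10a and wild-type pull-downs 18 and 9 of the 29 rose, against 23.2% and 22.9% of all genes. The myeloid change was more positive than that of L10a for 4 of the 29 and more negative for 13, against 13.8% and 11.6% of all genes. Gla, the lysosomal alpha-galactosidase, had 10.05, 9.91 and 9.94 in IRI arrays, against 7.98, 7.89 and 7.93 in sham arrays (2.03 ± 0.10). Cathepsin L (Ctsl) rose by 1.78 ± 0.14 and Gpnmb, a glycoprotein of lipid-laden and phagocytic macrophages, by 1.43 ± 0.16. The scavenger receptor Msr1 rose by 0.98, and Cd68 did not pass (-0.30). Lipid handling genes rose in 8 and fell in 6 of 19 (16.3% and 17.8% of all genes). The cholesterol exporters Abca1 (1.43 ± 0.26) and Abcg1 (0.91) rose, whereas lipoprotein lipase (Lpl, -1.66 ± 0.30), the fatty acid carrier Fabp3 (-1.43) and Ch25h, which makes 25-hydroxycholesterol (-1.55 ± 0.23), fell. Ch25h went the opposite way in the backgrounds, where it rose by 2.98 with the L10a allele and 3.47 in wild type. Cell cycle genes rose in 3 of 26 (16.3% of all genes), among them the centromere protein Cenpa (1.11 ± 0.16) and the checkpoint kinase Bub1b (0.68), and fell in 8 (17.8%), among them Ccnd1 (-0.94). The number that fell was 5 without IRI replicate 2 or sham replicate 1 and 3 without sham replicate 3, and with arrays centred on their medians 5 rose and 4 fell. Top2a fell by 0.59 in the probe set used, while its other probe set gave 0.16, and it did not pass with the mean of both (limma adjusted p = 0.14) or without any of IRI replicates 2 and 3 and sham replicates 1 and 3. Mki67, a marker of cycling cells, did not pass (-0.19).

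**Figure D3:**
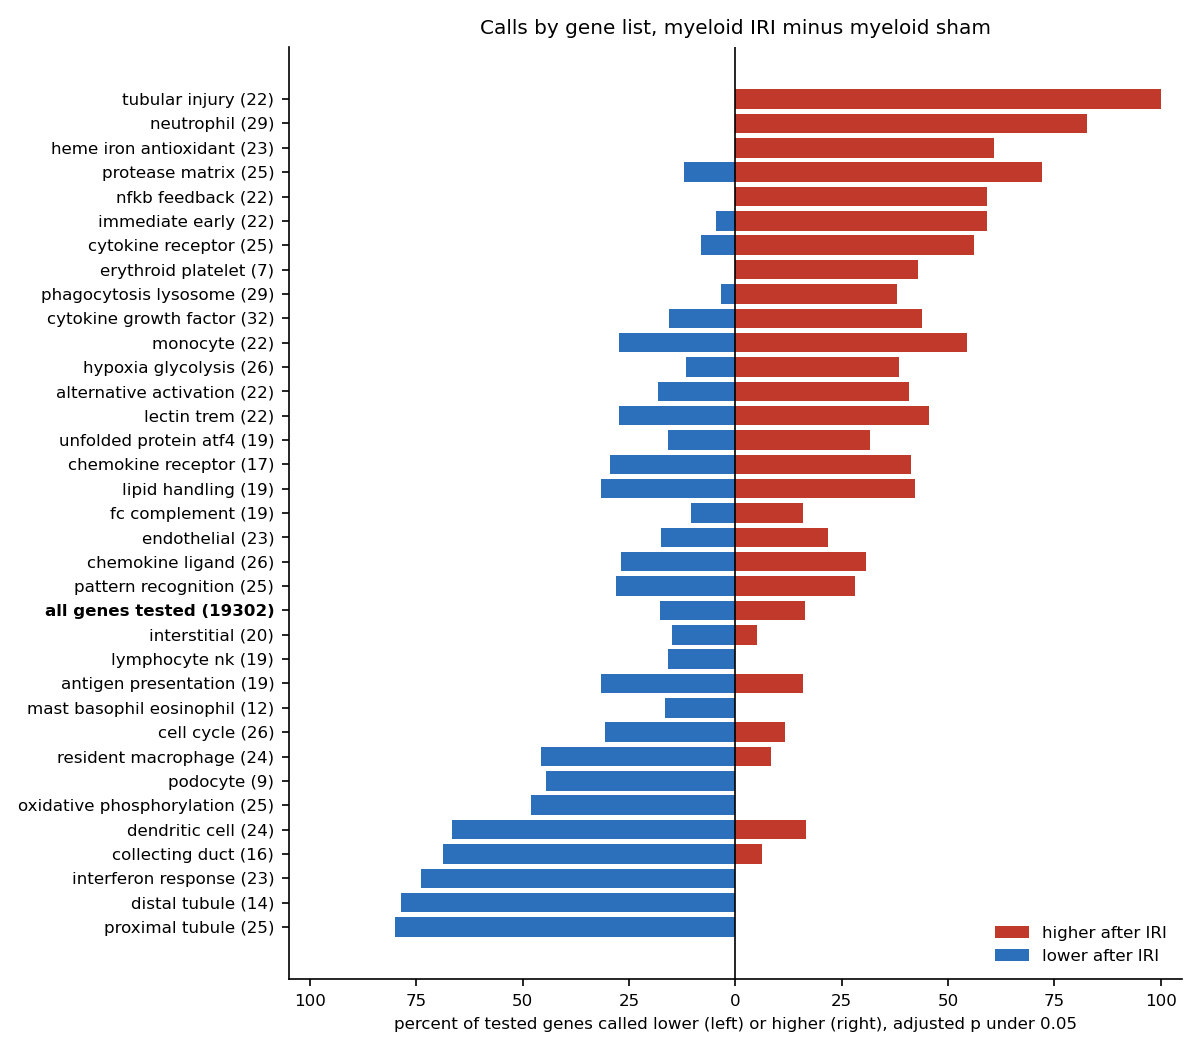
Percent of the tested genes of each list, with their number in brackets, that were called higher (right) or lower (left) after IRI in the myeloid line, sorted by the balance. All genes tested, in bold, show 16.3% higher and 17.8% lower, and the tubular injury and neutrophil lists stand at the top while 3 tubule lists and the interferon response stand among the lowest 5.

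Tubular injury genes rose in the myeloid pull-downs in 22 of 22 (16.3% of all genes) with a median of 1.74, a list of genes that damaged epithelium is known to raise. Krt20, a keratin of stressed epithelium, had 10.63, 10.54 and 10.37 in IRI arrays, against 5.84, 5.74 and 5.74 in sham arrays (4.74 ± 0.37). Havcr1, the kidney injury molecule KIM-1 of the proximal tubule, had 10.89, 11.32 and 10.59 after IRI, against 6.32, 6.44 and 6.38 in sham (4.55 ± 0.49). Sprr2f, a cornified envelope protein of epithelium, had 10.82, 10.68 and 10.88 in IRI arrays, against 5.67, 5.42 and 5.42 in sham arrays (5.29 ± 0.45). In the same list 20 of 22 rose in L10a pull-downs (median 1.81) and 20 in wild-type pull-downs (median 1.90), against 23.2% and 22.9% of all genes. Krt20 rose by 5.66 and 6.49 there, Havcr1 by 2.43 and 4.63, and Sprr2f by 5.68 and 3.06. After IRI 13 of the 22 were lower in myeloid than in wild-type pull-downs (33.6% of all genes), Krt20 by 2.44 and Havcr1 by 1.34 on the log2 scale, and 5 were higher (29.9%). Sprr2f (2.22), Sprr2g (2.92) and Vcam1 (2.37) were among those 5. The change of 3 of the 22 exceeded that of the L10a background, close to the 13.8% of all genes. The labels name collecting duct and podocyte as the source of that background. After IRI the mean log2 level of collecting duct genes was 9.44 to 9.63 in L10a and 8.49 to 8.72 in wild-type arrays. For podocyte genes it was 10.19 to 10.60 and 8.67 to 9.11. Whether the L10a response holds a response of tagged epithelium was not tested. The part of carried-over tubule RNA in the myeloid values was not tested.

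**Figure D4:**
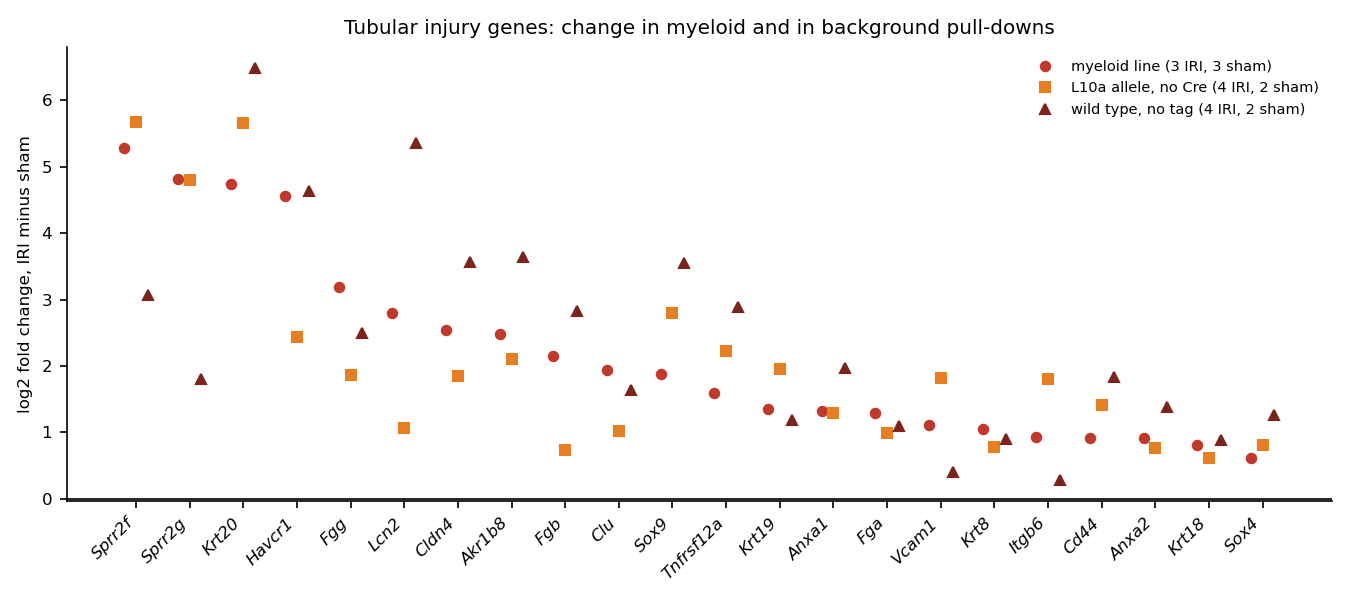
Log2 fold change, IRI minus sham, of the 22 tubular injury genes in the myeloid line (circles), in pull-downs with the L10a allele and no Cre (squares) and in wild-type pull-downs (triangles). The background pull-downs show changes of the size of the myeloid ones, such as 5.66 and 6.49 against 4.74 for Krt20.

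Genes of the healthy tubule fell. In the proximal tubule list 20 of 25 were lower (17.8% of all genes) and 0 higher (median -1.21), and their summed linear intensity was 28446 to 29270 in IRI arrays, 46963 to 82241 in sham arrays and 81638 to 111880 without surgery. None of them was above the wild-type pull-down in either group, and 24 were below it in both. Lrp2, the endocytic receptor megalin, had 9.30, 9.19 and 9.21 in IRI arrays, against 10.58, 12.35 and 11.56 in sham arrays, with the sham arrays widely spread (-2.26 ± 0.27). G6pc, which releases glucose (-3.42), Keg1 (-3.91), the organic anion transporter Slc22a19 (-3.58) and the steroid-metabolising Akr1c18 (-3.73) and Akr1c14 (-3.50), all among the 12 genes that fell most, lay below the wild-type pull-down in sham too. Distal tubule genes fell in 11 of 14 (Slc12a1, -2.99) and rose in 0, against 17.8% and 16.3% of all genes. Collecting duct genes fell in 11 of 16 (Ranbp3l, -3.54, and Hsd11b2, -2.96) and rose in 1. Podocyte genes fell in 4 of 9 (Clic3, -2.18, and Npnt, -1.61) and rose in 0. Such genes also fell in L10a and wild-type pull-downs, where 22.5% and 20.3% of all genes did. Proximal tubule genes fell there in 11 and 9 of 25, and distal tubule genes in 7 and 8 of 14. For collecting duct genes it was 11 and 7 of 16, and for podocyte genes 2 and 3 of 9. In wild type 2 collecting duct genes rose, and 2 podocyte genes rose in each background. The collecting duct gene that rose lost its call with sham replicate 1, sham replicate 3 or IRI replicate 1 left out, or with 45 or 57 arrays. The podocyte number that fell was 2 without IRI replicate 1, IRI replicate 3, sham replicate 1 or sham replicate 2 and with arrays centred on their medians. Collecting duct and podocyte genes are what the labels name as the source of the L10a background, and their mean log2 level after IRI was 9.44 to 9.63 and 10.19 to 10.60 in L10a arrays, against 8.18 to 8.25 and 8.73 to 8.89 in myeloid IRI arrays.

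Endothelial genes rose in 5 of 23 (Cdh5 and Pecam1, both 1.00) and fell in 4 (Igfbp5, -1.79), against 16.3% and 17.8% of all genes, and interstitial genes rose in 1 of 20 (Tagln, 1.16) and fell in 3 (Itga8, -1.28). With arrays centred on their medians 8 endothelial and 3 interstitial genes rose. In a fit of the compared groups alone 2 interstitial genes rose and 6 fell, and without sham replicate 2 it was 2 that rose. Against the same shares, lymphocyte and natural killer cell genes rose in 0 and fell in 3 of 19: Nkg7 (-0.65), Cd79b (-0.48) and Ncr1 (-0.38), of which Nkg7 and Ncr1 differed from wild type after IRI by 0.19 and -0.12 and did not pass. Without sham replicate 1 none of the 3 passed. Cd3e, Cd8a, Ms4a1 and Pax5 did not pass against wild type in either group. Mast cell, basophil and eosinophil genes rose in 0 and fell in 2 of 12 (Mcpt8, -0.22, and Ccr3, -0.14), neither of which passed without IRI replicate 1, IRI replicate 3, sham replicate 1 or sham replicate 3. Erythroid and platelet genes rose in 3 of 7 (16.3% of all genes), and those were Ppbp, Pf4 and Gp9 (0.48). The summed linear intensity of the 7 was 9191 to 9607 in IRI arrays, 3584 to 4144 in sham arrays and 3769 to 4174 without surgery. Gp9 lost its call when IRI replicate 1 (0.14), sham replicate 2 (0.39) or the third sham array (0.45) was left out.

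**Figure D5:**
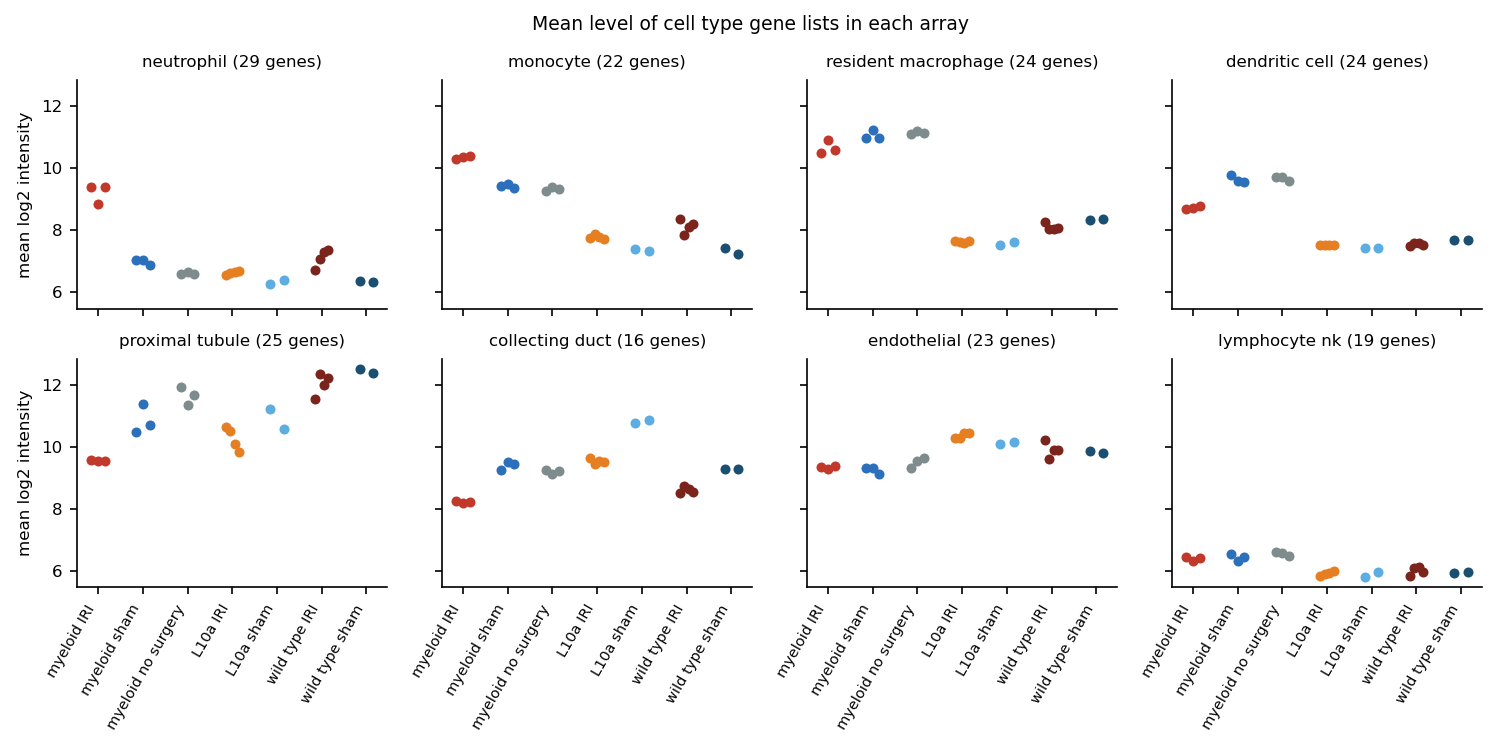
Mean log2 intensity over the tested genes of 8 cell type lists in each array, with myeloid IRI left of myeloid sham and no surgery, followed by the L10a and wild-type background pull-downs. Neutrophil genes stand at 8.83 to 9.38 after IRI against 6.87 to 7.03 in sham, and dendritic cell genes at 8.66 to 8.76 against 9.55 to 9.78.

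Among the 12 genes that fell most, 6 had been above the wild-type pull-down in sham and 6 below it, against 29.8% and 27% of all genes. The first 6 are genes of white blood cells: Xcr1, Clec9a and Ccl12, the orphan receptor Gpr141b (-3.83 ± 0.17), and Bank1 (-3.47 ± 0.17) and Gcsam (-3.28 ± 0.16), adaptors known mostly from B cells. Bank1 had 6.58, 6.96 and 6.38 in IRI arrays, against 10.24, 9.91 and 10.18 in sham arrays, and Gpr141b had 5.76, 5.70 and 6.21, against 10.05, 9.86 and 9.26. The other 6 are the tubule genes Keg1, Akr1c18, Akr1c14, Slc22a19, Ranbp3l and G6pc. Of the 12 genes that rose most, 10 were above the wild-type pull-down after IRI and 2, Krt20 and Havcr1, were below it. The shares of all genes were 29.9% and 33.6%. Both sets of 12 were picked with the same myeloid arrays, so these counts are no independent result.

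The arrays without surgery gave a second control of the sham mice's age. Against them 7252 genes changed after IRI (37.6%), 3723 of them higher (19.3%) and 3529 lower (18.3%), and 24 of 29 neutrophil genes rose, 16 of 24 dendritic cell genes fell and 24 of 25 proximal tubule genes fell. Other lists differed in their counts from those against sham. Interstitial genes fell in 10 of 20 (median -0.52) and cell cycle genes in 12 of 26, and endothelial genes rose in 3 and fell in 6 of 23. Both comparisons share the IRI arrays. Xcr1 fell by 3.76, Mmp8 rose by 5.65, Chil3 rose by 4.61 and Cx3cr1 fell by 2.93. Cd163 did not pass in this comparison (0.46), and neither did Ccr2 (-0.32). For Havcr1 the arrays without surgery (7.70, 7.57 and 8.09) lay above the sham arrays, and the rise over them was 3.15.

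The myeloid response was set against those of the other lines, which the titles name nephron, interstitial and endothelial. The difference from their mean response passed for 4843 genes (25.1%), 2501 with a more positive change in myeloid cells (13%) and 2342 with a more negative one (12.1%). Of the 12 genes that rose most in the myeloid line 10 had a more positive change there, led by Chil3 (4.00), Clec4e (3.43), Mmp8 (3.31) and Trem1 (3.14), while Krt20 (-0.84) and Sprr2g (1.18) did not pass. Of the 12 that fell most 9 had a more negative change, led by Ccl12 (-2.84), Bank1 (-2.66) and Gpr141b (-2.57), and Akr1c18, Akr1c14 and Slc22a19 did not pass. These 24 genes were picked for a large myeloid change, which the difference contains, so it is not an independent test of them. In the endothelial line alone the change was 4.26 for Cxcr2, 4.26 for Il1r2, 4.05 for Clec4d, -3.37 for Clec9a, -3.36 for Gpr141b and -3.27 for Xcr1. It was smaller for Chil3 (1.29) and Ccl12 (-2.23). Endothelial sham arrays held Cx3cr1 at a mean of 11.34 and Xcr1 at 9.22. A difference from the mean of the other lines thus does not set a gene apart from the endothelial line. The difference from the L10a background response passed for 4903 genes (25.4%), and for 3138 without L10a sham replicate 1, and that from wild type for 6521 (33.8%, with 15% more positive and 18.7% more negative in the myeloid line).

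The most negative change of all 19302 genes belonged to BC018473. The naming rule leaves it out as a clone name, and it is given because its values stand apart. It had 6.44, 6.42 and 6.44 in myeloid IRI arrays, against 12.35, 12.22 and 11.78 in myeloid sham arrays (-5.69 ± 1.00), but 6.43, 12.08 and 11.99 in mice without surgery, where the group itself was split. St6galnac1 (-2.49) and St6galnac2 (-2.01), its neighbours on chromosome 11, showed the same order of arrays. Whether the mixed strain background of the mice takes part in these values was not tested.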

How the data were processed

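The deposited table gives intensities on a linear scale, 1 per probe set and Affymetrix array. Per the submitters' processing notes, the authors summarised the arrays with RMA in Affymetrix Expression Console 1.3.1, and the genome build is not given in the sources used here. Their log2 was taken. Of 35556 probe sets, 21789 carried 1 symbol and were kept (19938 genes), with the highest-mean probe set where a gene had several. Genes above log2 5 in at least 3 arrays were tested. One limma 3.58.1 model (R 4.3.3) with a mean per group was fitted to the 51 TRAP arrays (34 residual degrees of freedom), without the 6 total RNA arrays, whose medians of 43.9 to 53.3 differ. P-values were adjusted by Benjamini-Hochberg, and errors are standard errors of this fit, with the spread of a gene pooled over all groups. Named genes are the 12 highest and 12 lowest called genes without overlap, up to 4 of each of 34 lists (732 entries tested) and a panel of 25. Other list members were chosen after their values were seen. Members and lists were chosen with earlier results of these data known. On simulated data of this comparison 48, 88, 92 and 100% of genes changed 1.25-, 1.5-, 2- and 4-fold were recovered, with 5.2% false calls. Promoters are RefSeq windows, the first listed for a gene. Alternatives covered normalization, filter, arrays fitted, probe sets, spread, block and single arrays.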

Additional observations from a re-analysis of the deposited data

Results flagged for a closer look

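The change after IRI was compared between the myeloid line and the mean of the nephron, interstitial and endothelial lines. By the limma test of that difference, 19 of the 24 genes with the most extreme myeloid changes passed, against 25.1% of all genes. The 24 genes were picked for a large myeloid change, which the difference contains, so it is no independent test of them. Among genes that rose, the difference on the log2 scale was 1.67 for Sprr2f, 1.83 for Slc7a11, 3.31 for Mmp8, 3.14 for Trem1, 2.28 for Cxcr2 and 2.69 for Clec4d. It was 3.43 for Clec4e, 4.00 for Chil3, 2.65 for Havcr1 and 1.89 for Il1r2. Among genes that fell it was -2.26 for Keg1, -2.57 for Gpr141b, -2.38 for Xcr1, -2.84 for Ccl12 and -0.86 for Ranbp3l. For Bank1 it was -2.66, for G6pc -1.31, for Clec9a -1.98 and for Gcsam -2.27. Ranbp3l was closest to the threshold (limma adjusted p = 0.049). Over all genes the myeloid change differed from that of the other 3 lines for 4843, from the L10a background for 4903 and from the wild-type background for 6521.

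In 2 of 48 groups of 4 background arrays 1 array stood apart from the rest, where chance gives about 1 in 20. Wild-type IRI replicate 2 held less Havcr1, 10.87 against 12.61 to 12.96 in the other 3, a gap of 0.834 of the range. L10a IRI replicate 1 held less Il1r2, 6.38 against 6.97 to 7.07, a gap of 0.850 of the range. The groups of 3 were too small for this test.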

How the results depend on the processing

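With each array centred on its median, 5409 genes were higher and 2384 lower, against 3137 and 3437 as reported, and the median change of all genes moved from -0.02 to 0.11. Under the other whole-table settings (quantile normalization, both filters, 45 or 57 arrays, the compared groups alone, trend and robust, mean of probe sets) each count of calls over all genes stayed within 1.5 times. Several counts within lists moved further, most of them given beside the lists. Under median centring C1qa (0.025) and Csf1r (0.011) turned direction, neither called before or after. Leaving out single arrays gave 2605 to 3080 higher and 2824 to 3347 lower, 6133 to 7027 against no surgery, 3138 to 5223 against the L10a response, 5136 to 7434 against wild type and 3817 to 4941 against the other lines. Leaving out background and other-line arrays was chosen after seeing the data. No pairing of sham and IRI replicate numbers was seen: deviations of same-numbered arrays correlated at -0.083, 0.039 and 0.032. Those of other pairs lay between -0.109 and 0.115. With 3 arrays in a group, this cannot exclude a day or batch shared by arrays of the same number. With the replicate block, 3090 were higher and 3390 lower, and 0 of 147 named genes changed call. The number of arrays limits precision, and changes of genes near the floor of the arrays may be understated.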

Other observations

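BC018473 took 2 separate levels across the 51 TRAP arrays, 6.22 to 8.28 in 38 and 9.74 to 12.35 in 13. All 3 myeloid IRI arrays were low and all 3 myeloid sham arrays high, while 1 of the 3 myeloid arrays without surgery was low (6.43). In the nephron line all 3 arrays without surgery were high and all 3 IRI and 3 sham arrays at 24 h low, with 2 of 3 high at 4 h after IRI. In the interstitial line 2 of 3 sham arrays and 1 of 3 without surgery were high. All endothelial, interstitial IRI, L10a and wild-type arrays were low. St6galnac1 had 5.44, 5.22 and 5.32 in myeloid IRI arrays, against 7.98, 8.09 and 7.38 in sham arrays and 5.27, 7.71 and 8.03 without surgery. St6galnac2 had 9.44, 9.16 and 9.28 in IRI arrays, against 11.33, 11.37 and 11.19 in sham arrays and 10.21, 11.44 and 11.49 without surgery. The same myeloid array without surgery was the low one for all 3 genes, which fall within 4 neighbouring genes of chromosome 11 in the RefSeq annotation of GRCm38.p6. These genes were chosen after their values were seen.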
